A study of Mus musculus with 6 samples.

Results

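The SCR (Sox2 control region) is a cluster of enhancers that the pluripotency gene Sox2 depends on in embryonic stem cells. Its interactions at 1.5 to 5 Mb from the bait were examined on both sides of chromosome 3 (mm9). The members were the DpnII restriction fragments whose midpoint lay more than 1.5 Mb and at most 5 Mb from the bait position, 34660500. There were 17226 of them among the 391360 fragments of the chromosome (4.40%). Of these, 8641 lay on the side of lower coordinates, which is the side of Sox2 (chr3:29659901-33160383), and 8585 on the side of higher coordinates (chr3:36160600-39660873). Their median length was 272.5 bp, with a range of 4 to 4811 bp.

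Circular chromosome conformation capture (4C) fixes contacts in nuclei, cuts the DNA, joins ends that lay close together, and reads out by inverse PCR which fragments were joined to 1 chosen bait. Contact frequency falls with distance along the chromosome. Beyond the bait's own domain, gene-rich open chromatin tends to meet other gene-rich open chromatin, and gene-poor closed chromatin to meet its own kind. A 4C library at these distances is also sparse, since each cell offers few joined ends. Each library averages over many cells, so fewer cells with a contact and a rarer contact in each cell cannot be told apart.

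All 3 libraries used the same SCR bait, the enzymes DpnII and Csp6I, 2% formaldehyde for 10 min and 0.4% SDS. There were 2 biological replicates of mouse ES cells of the J1 line, which were taken off their feeder cells by passaging on gelatin. The single NPC library came from ES cells differentiated in vitro for 6 days without LIF, with 5 μM retinoic acid for 4 days. The labels give J1 as its starting line, whereas the Methods give F1 ES cells grown in 2i, so the line and the culture may differ along with differentiation and cannot be told apart from it. The values hold no expression, so the identity of the cells could not be checked against marker genes.

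The libraries held 6447786 (ES replicate 1), 3915756 (ES replicate 2) and 2889643 (NPC) reads on chromosome 3. Of these, 280489, 214688 and 208280 reads lay at 1.5 to 5 Mb, which is 4.35%, 5.48% and 7.21%. A fragment was called detected when it had at least 1 read. By this measure 716, 1194 and 1307 of the 17226 fragments were detected. The deepest library thus had the fewest detected fragments. No library detected 14639 fragments (85.0%). Reads were concentrated on few fragments: the 10 fragments with the most reads held 19.0%, 16.6% and 26.4% of the reads of this range. In contrast, 231, 207 and 326 detected fragments had a single read.

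Before any result, 1 feature of the libraries has to be stated. ES replicate 1 and NPC detected 426 of the same fragments, which is 59.5% of those of ES replicate 1 and 32.6% of those of NPC. The product of the shares of both libraries, which is the overlap of unrelated fragments spread evenly, would be 54.3 fragments. The 2 ES replicates shared only 100 (product 49.6), and ES replicate 2 shared 172 with NPC (product 90.6). Of the 426, 406 had under 10 reads in the library with fewer. Where ES replicate 1 had at least 1000 reads, NPC also had reads in 69 of 85 cases (81.2%, exact binomial 95% interval 71.2 to 88.8), at a median of 3 reads or 0.102% of the larger count. ES replicate 2 had reads on 16 of those 85 (18.8%, 11.2 to 28.8). Beyond 5 Mb, ES replicate 1 and NPC shared 1143 fragments against a product of 27.1. NPC also had reads on 296 of the 407 fragments with under 10 reads in ES replicate 1 (72.7%). In the other direction, ES replicate 1 had reads on 18 of the 57 fragments with at least 1000 reads in NPC (31.6%). It had reads on 313 of the 832 fragments with under 10 reads in NPC (37.6%). The source of this sharing was not tested. Whether a low-read fragment of these 2 libraries is a contact of its own library cannot be told from the counts, and this holds for every detected share of ES replicate 1 and NPC given below.

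Results are therefore given for detected fragments and, beside them, for own fragments. An own fragment of a library had at least 10 reads there and at least 1% of the reads that each other library had on it. This rule was chosen after the sharing was seen. It left 308, 736 and 472 own fragments, which held 99.7%, 99.4% and 98.8% of the reads of this range. Nearly all of this was the limit of 10 reads, which alone left 309, 737 and 475 fragments. That limit was the same for all 3 libraries, whatever their depth. Own fragments are thus in effect those with at least 10 reads. Among own fragments, ES replicate 1 and NPC shared 18 (product 8.44), the ES replicates 34 (13.2), and ES replicate 2 and NPC 33 (20.2). The plot of reads on shared fragments shows the difference between the pairs.

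**Figure D1:**
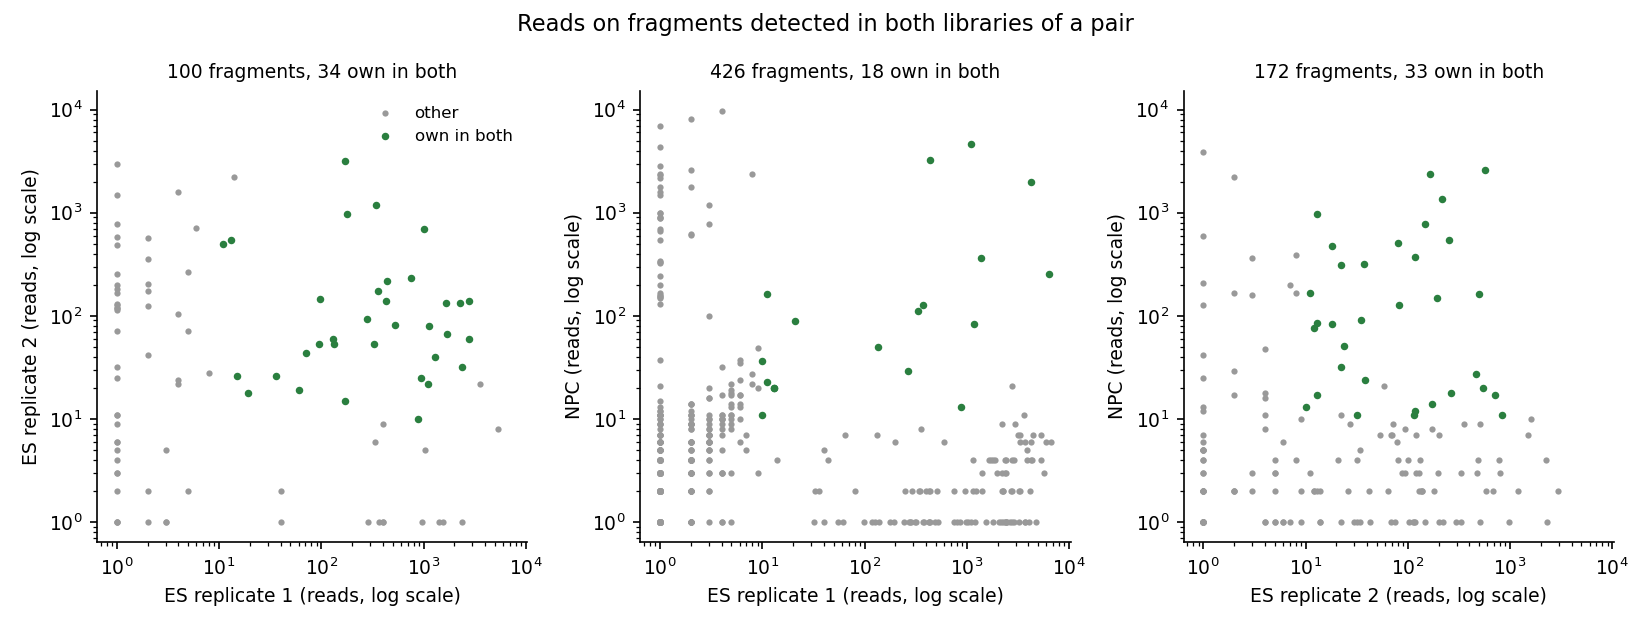
Reads per fragment at 1.5 to 5 Mb in 1 library against another (both axes log scale), for fragments with at least 1 read in both; green points are own fragments of both libraries. ES replicate 1 and NPC share 426 fragments, most of them at 1 to 10 reads along the axes, but only 18 of these are own in both.

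The fragments below show what such an interaction is read from. A 4C read starts at a GATC, the DpnII site at either end of a fragment, and runs 27 nt into it. GTAC is the Csp6I site used for the second digestion. Both sites are in capitals. Sequences are the mm9 plus strand including both DpnII sites, and were chosen after the reads were seen. The first pair are the short members of the 3 fragments that were own in all 3 libraries. The Usp13 fragment lies at chr3:32719788-32719986 in an intron of Usp13, which encodes a deubiquitinase. It had 11, 501 and 161 reads in ES replicate 1, ES replicate 2 and NPC. The Gm15496 fragment lies at chr3:31210726-31210984 within the noncoding gene Gm15496 and had 885, 10 and 13 reads. It holds no GTAC, and the 27 nt at its right end occur at 5025 places of the genome, so only reads from its left end could be placed on it.
Usp13 intron: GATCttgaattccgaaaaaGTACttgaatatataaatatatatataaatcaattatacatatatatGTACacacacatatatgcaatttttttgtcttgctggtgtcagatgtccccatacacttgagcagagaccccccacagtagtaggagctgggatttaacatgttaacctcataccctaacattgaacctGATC
Gm15496: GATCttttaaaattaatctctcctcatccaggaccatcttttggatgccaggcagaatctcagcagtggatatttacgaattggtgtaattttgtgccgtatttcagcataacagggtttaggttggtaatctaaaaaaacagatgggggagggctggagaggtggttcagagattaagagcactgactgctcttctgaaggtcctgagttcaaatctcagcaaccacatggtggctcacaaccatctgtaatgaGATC
The third, of 522 bases at chr3:32859720-32860241 in an intron of Pex5l, had 13, 548 and 20 reads.

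The next set were own fragments of both ES replicates and not of NPC. Only 2.74% of all fragments of the range were own in NPC, so not being own there does not mark a fragment as particular to ES. The Spata5 fragment (chr3:37366257-37366338, intron) had 1013, 701 and 0 reads. The Prkci fragment (chr3:30911824-30912066, intron) had 177, 967 and 1. The Mfn1 fragment (chr3:32429206-32429326, intron) had 1305, 40 and 0. Spata5 encodes an AAA ATPase, Prkci an atypical protein kinase C of cell polarity, and Mfn1 a mitofusin of the mitochondrial outer membrane.
Spata5 intron: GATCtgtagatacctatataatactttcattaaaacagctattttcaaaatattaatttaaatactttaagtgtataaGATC
Prkci intron: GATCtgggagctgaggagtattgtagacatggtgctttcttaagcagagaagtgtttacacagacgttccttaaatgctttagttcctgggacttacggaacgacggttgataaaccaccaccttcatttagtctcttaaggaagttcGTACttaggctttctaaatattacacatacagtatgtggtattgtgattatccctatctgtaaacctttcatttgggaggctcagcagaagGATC
Mfn1 intron: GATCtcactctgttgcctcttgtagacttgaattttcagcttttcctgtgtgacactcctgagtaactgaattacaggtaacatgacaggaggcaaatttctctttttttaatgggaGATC
There were 31 fragments of this kind, and 3 more that were own in both ES replicates were also own in NPC. Of these, 23 lay in protein-coding genes (overlap by any base), which hold the midpoints of 37.4% of all fragments of the range. NPC had no read on 16 of the 31 and had reads on the rest, whereas it detected 7.59% of all fragments of the range.

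The last set were own fragments of ES replicate 2 and NPC but not of ES replicate 1. The fragment at chr3:29836454-29836739, 13.6 kb from Mecom, had 2, 570 and 2580 reads. The fragment at chr3:29854845-29855075, in an intron of Mecom, had 0, 218 and 1352. Mecom encodes the zinc finger transcription factor also known as EVI1.
near Mecom: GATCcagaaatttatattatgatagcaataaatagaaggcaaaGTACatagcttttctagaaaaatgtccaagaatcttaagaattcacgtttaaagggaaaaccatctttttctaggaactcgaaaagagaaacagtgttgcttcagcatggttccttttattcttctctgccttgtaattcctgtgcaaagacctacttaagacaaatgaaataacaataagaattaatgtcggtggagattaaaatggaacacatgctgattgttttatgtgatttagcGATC
Mecom intron: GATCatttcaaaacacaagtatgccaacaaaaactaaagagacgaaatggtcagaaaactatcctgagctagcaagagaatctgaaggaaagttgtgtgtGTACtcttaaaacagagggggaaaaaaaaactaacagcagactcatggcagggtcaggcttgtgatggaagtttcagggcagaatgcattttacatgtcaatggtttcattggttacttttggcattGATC
There were 30 fragments of this kind, 10 of them in protein-coding genes, a share near that of all fragments. With the fragments own in all 3 libraries, ES replicate 2 thus shared 33 own fragments with NPC and 34 with ES replicate 1.

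The share of fragments detected at 1.5 to 5 Mb was 4.16% in ES replicate 1 (exact binomial 95% interval 3.86 to 4.47), 6.93% in ES replicate 2 (6.56 to 7.32) and 7.59% in NPC (7.20 to 7.99). Reads are not independent ligations, because PCR copies cannot be removed, so intervals cover counting error only. The ES mean was 5.54% ± 1.96 (SD, n = 2), and the ratio of ES to NPC was 0.731. For own fragments the shares were 1.79%, 4.27% and 2.74%, with an ES mean of 3.03% ± 1.76 (SD, n = 2) and a ratio of 1.11. NPC then lay between the ES replicates, so the ES to NPC difference was smaller than the spread between ES replicates. The direction of the ratio depended on the rule. With 2 libraries against 1, a permutation test cannot reach significance, and none was run.

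The share fell with distance. From 0.5 to 1.5 Mb, 20%, 27.7% and 32.4% of fragments were detected. At 1.5 to 2.5 Mb the shares were 7.19%, 11.2% and 12.4%, at 2.5 to 3.5 Mb 3.12%, 5.48% and 5.79%, and at 3.5 to 5 Mb 2.84%, 5.07% and 5.63%. Beyond 5 Mb they were 0.590%, 0.895% and 1.25%, so that the range at 1.5 to 5 Mb lay 7.04, 7.75 and 6.06 times above the part beyond 5 Mb. The order of these ranges was the same in all 3 libraries. For comparison, at the same distances from their own baits, 10.3% of fragments were detected for Satb1 in ES cells, 2.31% for Satb1 in DP thymocytes and 1.60% for Ikzf1 in DP thymocytes. These baits lie on other chromosomes and had 1 library each.

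Over the whole range more fragments were detected on the side of Sox2 than on the other, but not at each distance. The ratio of the lower to the higher side was 1.24, 1.32 and 1.17 for detected fragments and 1.38, 1.37 and 1.13 for own fragments. The fall with distance was not even on the side of Sox2. There, 0.833%, 2.61% and 1.81% of fragments were own at 2.5 to 3.5 Mb, but 1.73%, 4.62% and 2.54% at 3.5 to 5 Mb. At 2.5 to 3.5 Mb the sides were reversed in all 3 libraries, with 2.17%, 4.57% and 4.64% detected on the side of Sox2 and 4.19%, 6.51% and 7.08% on the other. On that other side the own share fell from 2.49%, 6.04% and 4.16% at 1.5 to 2.5 Mb to 1.91%, 3.75% and 2.20% at 2.5 to 3.5 Mb and 0.571%, 1.88% and 1.77% at 3.5 to 5 Mb. Between these wide ranges, a renewed rise with distance was thus seen in all 3 libraries on the lower side alone. In 250 kb bins the other side also rose again in all 3. Its detected shares were 3.86%, 6.59% and 7.56% at 2.25 to 2.5 Mb and 7.03%, 10.7% and 10.2% at 2.5 to 2.75 Mb.

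**Figure D2:**
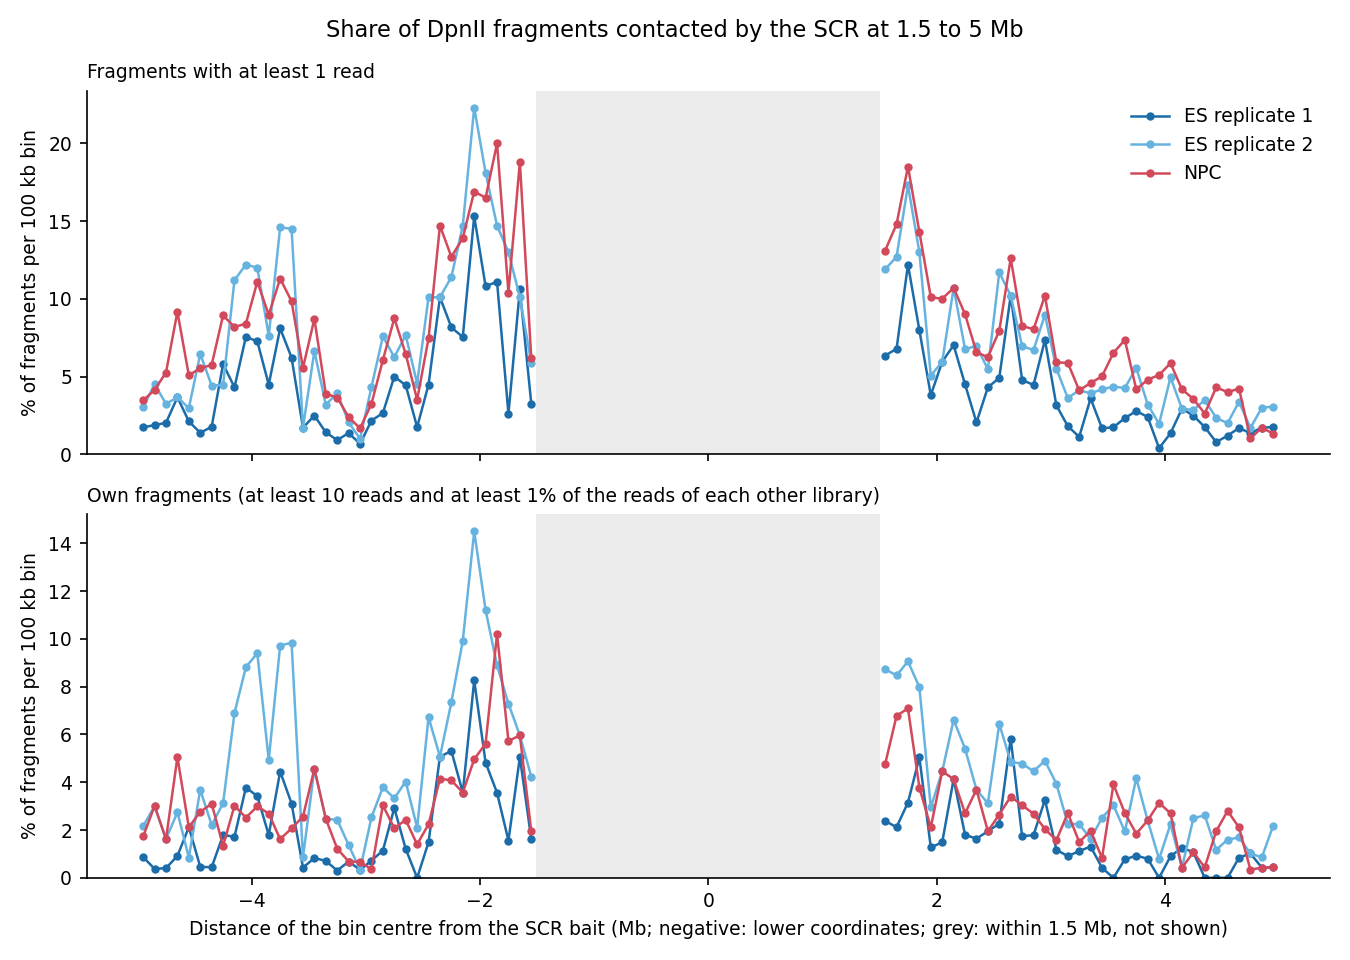
Percent of DpnII fragments per 100 kb bin that were detected (top) or own (bottom), against the distance of the bin centre from the SCR bait in Mb, with a line for each library. On the lower side all 3 libraries peak near 2 Mb, and detected shares are lowest at 3.0 to 3.1 Mb. The own share of both ES replicates rises again near 4 Mb, most clearly in ES replicate 2.

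In 100 kb bins the detected share ranged from 0.392% to 15.3% in ES replicate 1 (median 3.04%), from 1.00% to 22.3% in ES replicate 2 (median 5.54%) and from 1.02% to 20% in NPC (median 6.48%). No bin of the 70 was at 0. The bin with the highest mean was chr3:32560500-32660499, with 15.3%, 22.3% and 16.9% of its 242 fragments detected and 8.26%, 14.5% and 4.96% own. It holds the starts of 3 genes. Actl6a encodes a subunit of BAF chromatin remodelling complexes, Mrpl47 a mitochondrial ribosomal protein, and Ndufb5 a subunit of respiratory complex I. The neighbouring bins along Usp13 and Pex5l were also among the 5 highest, with 10.8%, 18.1% and 16.5% at chr3:32660500-32760499 and 11.1%, 14.7% and 20% at chr3:32760500-32860499. The bin at chr3:32960500-33060499, along Pex5l, which encodes a brain-expressed partner of HCN channels, had 10.6%, 10.1% and 18.8%. The bin with the next highest mean lay on the other side, at chr3:36360501-36460500, and had 12.2%, 17.3% and 18.5%. It holds the starts of Anxa5 (a phospholipid-binding annexin), 1810062G17Rik and Exosc9 (an RNA exosome subunit). All 5 bins lay within 2.1 Mb of the bait.

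The lowest bins held no annotated protein-coding gene. At chr3:31560500-31660499, 0.669%, 1.00% and 1.67% of 299 fragments were detected, and at chr3:31460500-31560499 1.37%, 2.05% and 2.39%. Only 58.2% and 50.9% of the fragments of these bins had an end whose 27 nt occur once in the genome, against 83.0% over the whole range. The other 3 lowest bins were the outermost on the higher side (chr3:39360501-39660500), with 1.02% to 3.07% detected over the libraries.

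At 250 kb the profile resolved into a few areas, which were chosen after their values were seen. The strongest, from Zfp639 to Pex5l at 1.75 to 2.25 Mb (chr3:32410500-32910499), had 10.6%, 17.4% and 16.9% of its 1184 fragments detected. Its own share was 2.88, 2.59 and 2.25 times that of the whole range. Around Anxa5, Exosc9 and Ccna2 on the other side (chr3:36160501-36660500), own shares were 1.56, 1.75 and 1.80 times that of the whole range. The trough at chr3:31410500-31660499, between Slc7a14 and Kcnmb2 and without a protein-coding gene, had 0.903%, 1.68% and 2.19% detected and own shares at 0.289, 0.242 and 0.283 times. These values are sums over areas, and single bins within them differed. In the strongest area the bin at 2 to 2.25 Mb, from Zfp639 to Ndufb5, had own shares of 3.56, 2.79 and 1.79 times that of the whole range, with both ES replicates above NPC. The bin at 1.75 to 2 Mb, along Usp13 and Pex5l, had 2.15, 2.37 and 2.74 times, with NPC above both.

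ES and NPC also departed from each other in an area farther out, at 3.5 to 4.25 Mb on the side of Sox2 (chr3:30410500-31160499). It holds 13 protein-coding gene starts, among them those of Mynn, Sec62, Phc3 (a Polycomb protein), Prkci and Skil (a repressor in TGF-β signalling). Own fragments made up 2.65% of its 1736 fragments in ES replicate 1, 6.80% in ES replicate 2 and 2.36% in NPC. Relative to each library's own share over the whole range, this was 1.48, 1.59 and 0.862. For detected fragments the relative values were 1.37, 1.45 and 1.18. In the neighbouring Mecom area (chr3:29660500-30410499), with 1 gene start, own shares were 0.453, 0.568 and 0.992 times that of the whole range. The ES replicates thus lay together and above NPC in the gene-rich area and below it along Mecom, but the area was chosen for this and has no test of its own. None of its 100 kb bins passed the tests given further on.

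**Figure D3:**
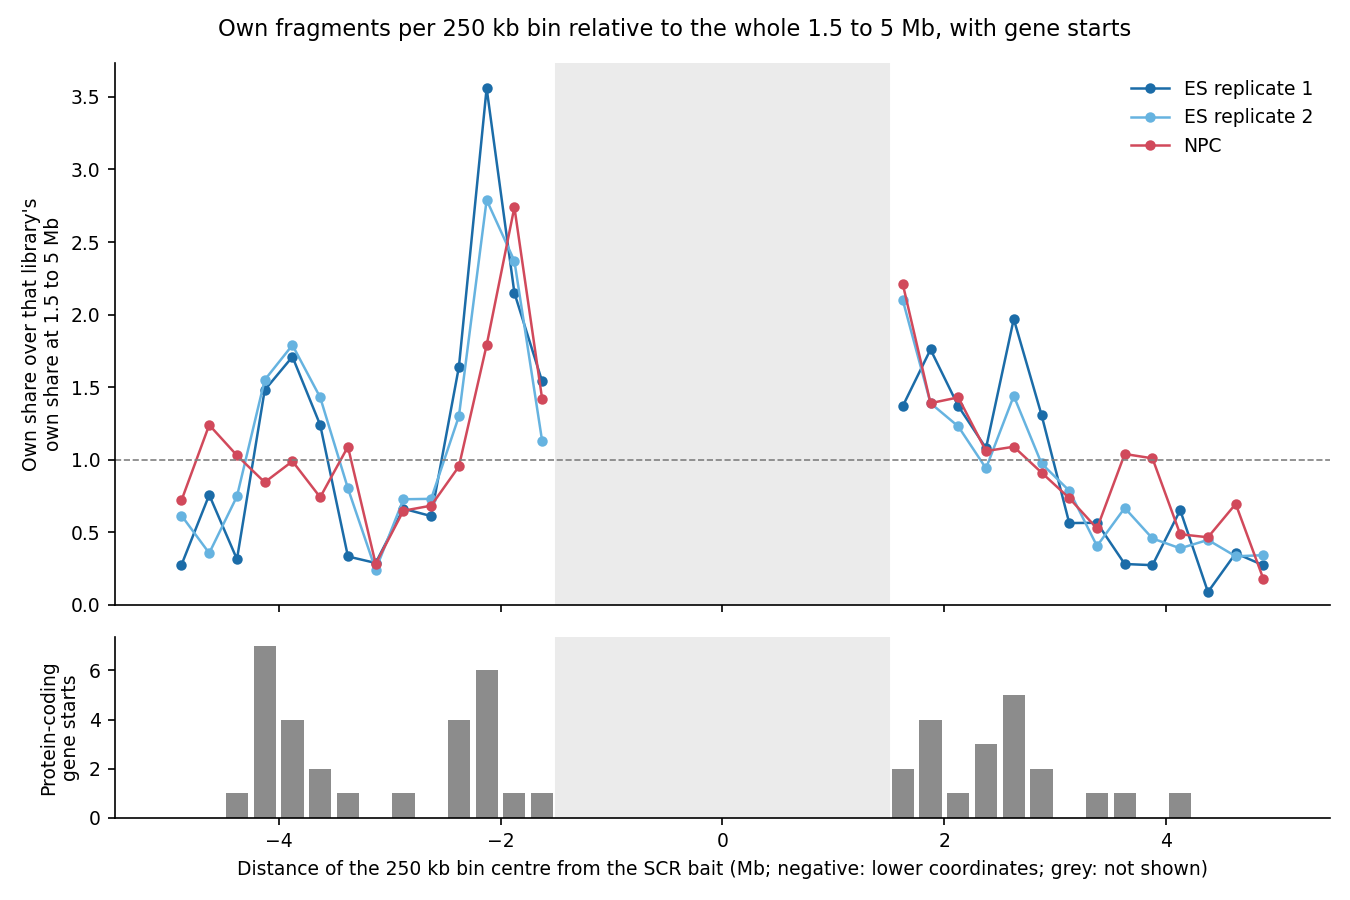
Own share of each 250 kb bin divided by the library's own share over the whole 1.5 to 5 Mb (top; dashed line at 1), and the number of protein-coding gene starts per bin (bottom), against distance from the SCR bait in Mb. Both ES lines rise near 4 Mb on the lower side, to 1.71 and 1.79, where the NPC line stays at 0.990.

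Across the 70 bins of 100 kb the detected shares of the ES replicates correlated with r = 0.871 (Spearman rho 0.841), those of ES replicate 1 and NPC with r = 0.908 (0.871), and those of ES replicate 2 and NPC with r = 0.850 (0.856). Neighbouring bins and all 3 libraries share distance, mappability and base composition, so these values are descriptions without a test. The order changed for own fragments. The ES replicates then correlated with r = 0.785 (rho 0.786), ES replicate 1 and NPC with r = 0.476 (0.459), and ES replicate 2 and NPC with r = 0.601 (0.586). Without the fragments that ES replicate 1 and NPC share, the values were 0.725 (0.706), 0.653 (0.688) and 0.776 (0.789). This removal leaves no fragment detected in both ES replicate 1 and NPC, so it acts against that pair by construction. In 100 kb bins, which pair was most alike thus differed between detected and own fragments. In 250 kb bins it did not. There, detected shares gave r = 0.968, 0.947 and 0.94, and own shares r = 0.902, 0.645 and 0.774, in the same order of pairs. The ES replicates were then the most alike by both measures.

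Over the whole range interactions were more frequent near gene starts in each library. The contrast was steeper in both ES replicates than in NPC, but not at each distance. Within 10 kb of a protein-coding gene start lay 1913 fragments, and 6848 lay over 100 kb from any. Detected shares were 8.89% and 1.94% in ES replicate 1, 13% and 4.06% in ES replicate 2, and 12.7% and 4.40% in NPC, which is 4.58, 3.21 and 2.88 times higher near starts. Own shares were 4.97% and 0.643%, 8.00% and 2.47%, and 3.40% and 2.04%, which is 7.73, 3.24 and 1.66 times higher. The fold near starts was 5.48 ± 3.17 (SD, n = 2) in ES, 3.30 times that of NPC. The ES replicates differed from each other by more than ES replicate 2 differed from NPC, and a single NPC library allows no test of this. At 10 to 50 kb from a start the own shares of ES replicate 1 and NPC were 2.31% and 2.93%, in the opposite order to that within 10 kb.

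Fragments near starts also lay nearer the bait, so the contrast was repeated within ranges of distance. Detected fragments were 2.35, 1.39 and 1.40 times as frequent near starts at 1.5 to 2.5 Mb, 3.70, 1.96 and 2.67 times at 2.5 to 3.5 Mb, and 3.60, 3.47 and 2.39 times at 3.5 to 5 Mb. ES replicate 2 was thus steeper than NPC in the farthest range alone. At 1.5 to 2.5 Mb own fragments were 2.98, 1.38 and 0.735 times as frequent near starts, at 2.5 to 3.5 Mb 7.43, 1.61 and 2.16 times, and at 3.5 to 5 Mb 6.50, 3.72 and 1.17 times. For own fragments NPC was the lowest in the nearest range, where its share near starts was below that far from them, and in the farthest, and it lay between the ES replicates in the middle one. Some of these rest on few fragments: at 2.5 to 3.5 Mb only 15, 12 and 9 own fragments lay near starts. Among fragments with both a GTAC site and a unique end, own fragments over the whole range were 5.62, 3.12 and 1.30 times as frequent near starts. In whole bins, those with at least 2 starts (13 bins) had 2.98, 2.65 and 2.01 times the detected share of the 42 bins with none, and 4.16, 2.62 and 1.46 times the own share.

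**Figure D4:**
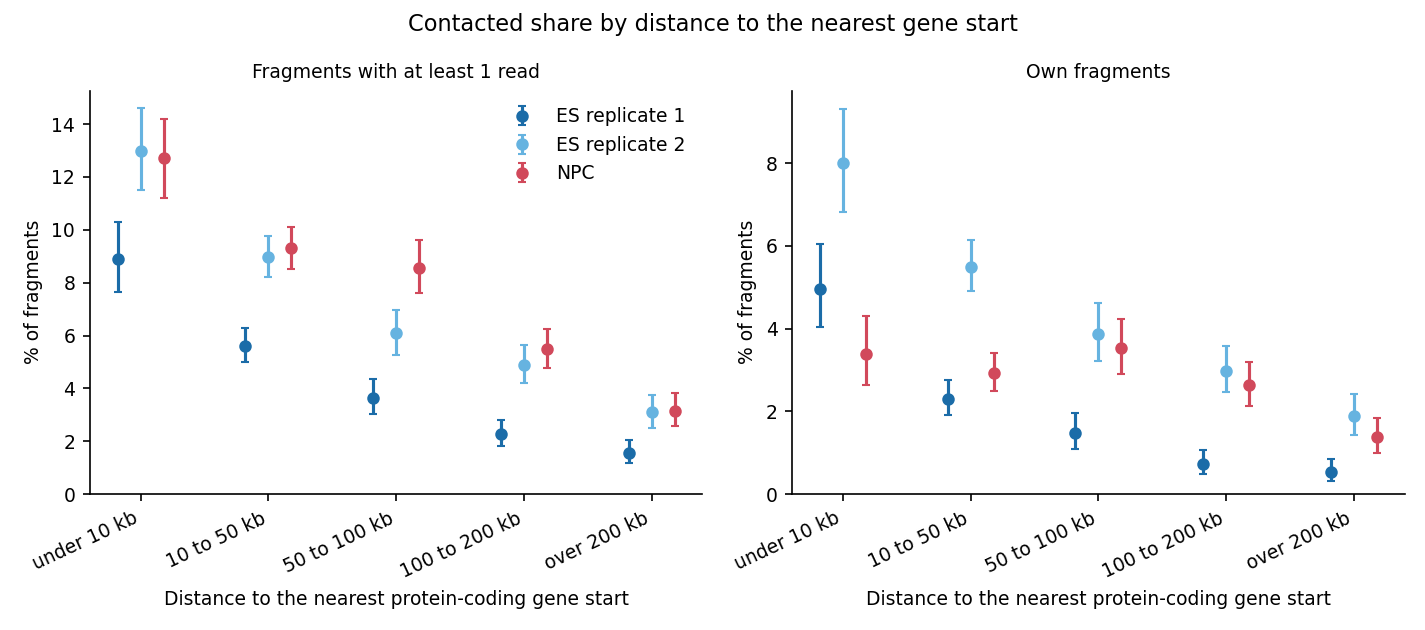
Percent of fragments at 1.5 to 5 Mb that were detected (left) or own (right), by distance to the nearest protein-coding gene start, for each library; bars are exact binomial 95% intervals, which cover counting error only. Within 10 kb of a start the own share of NPC (3.40%) lies below both ES replicates (4.97% and 8.00%), and over 200 kb from any it lies between them.

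Of 27 genes listed for this range, 25 had fragments in it, counted over the gene body and 10 kb on either side. In 19 of the 25 the detected share was above that of the whole range in all 3 libraries, and in 14 the own share was. In 3 the detected share was below it in all 3. Many of these gene windows are short and hold a start, though that of Mecom has 1404 fragments. These counts thus restate in part the contrast by gene starts for named genes. The lists were not matched for distance from the bait, and no such count was made for the other genes of the range.

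All 5 genes of chromatin, RNA and mitochondria lay above the whole range in each library by both measures, with a median own share of 7.25%, 13% and 6.45%. They lay 1790 to 2180 kb from the bait. At 1.5 to 2.5 Mb the own shares over all fragments were already 3.23%, 7.05% and 4.42%. Actl6a had 17, 23 and 13 of 92 fragments detected (18.5%, 25.0% and 14.1%) and 13%, 17.4% and 3.26% own. Exosc9 had 21.5%, 18.3% and 21.5% detected and 10.8%, 12.9% and 6.45% own. Ndufb5 and Mrpl47, whose windows overlap each other and that of Actl6a, had own shares of 6.90%, 14.9% and 9.20%, and of 7.25%, 13% and 10.1%. Mfn1 had 6.59%, 10.8% and 5.39% own. The own share in NPC was below both ES replicates at Actl6a, Exosc9 and Mfn1, and between them at Ndufb5 and Mrpl47. At Actl6a, Exosc9 and Mfn1 it rests on 3, 6 and 9 own fragments of NPC.

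Among growth and cell cycle genes, Ccna2, which encodes cyclin A2, had the highest detected share of all 25 in both ES replicates. Of its 67 fragments 22.4%, 28.4% and 17.9% were detected and 13.4%, 16.4% and 4.48% own. Its window overlaps that of Exosc9. Skil had 3.41%, 11.4% and 3.41% own, and Prkci 4.47%, 11.7% and 1.68%. Pik3ca, which encodes a catalytic subunit of PI3 kinase, had 4.43%, 3.94% and 2.96%, and the p53 target Zmat3 3.51%, 7.02% and 2.63%. Mecom, the longest of these genes with 1404 fragments, had 0.855%, 2.35% and 2.71%, the one gene of this list where the own share of NPC was above both ES replicates. By detected share NPC was above both at Mecom (2.56%, 4.13% and 6.48%) and at Pik3ca (6.90%, 8.87% and 13.3%). At Prkci and Ccna2 the own share of NPC was below both. The own shares of NPC at Ccna2, Skil, Prkci and Zmat3 rest on only 3 fragments each.

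Signalling genes lay closer to the whole range. Fgf2, which encodes a growth factor, had 5.34%, 9.61% and 8.90% detected and 2.85%, 4.98% and 3.20% own. Spry1, which encodes an inhibitor of receptor tyrosine kinase signalling, had 7.55%, 9.43% and 9.43% detected, and Gnb4, a G protein subunit, 10.1%, 11.5% and 13.7%. Il2, a T cell cytokine, had 0, 5 and 1 of 46 fragments detected. A count of 0 there allows a share of up to 6.52%. Its neighbour Il21 had 4.88% in each library.

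Genes of nerve cell channels and adhesion did not stand above the rest as a list. Kcnmb2 and Fat4 lay farther out than any gene of chromatin, RNA and mitochondria, at 2560 and 4130 kb from the bait. Pex5l, the nearest to the bait, had 7.73%, 11.7% and 16.1% detected and 3.75%, 6.4% and 6.4% own. Kcnmb2, which encodes a potassium channel subunit, had 3.90%, 6.59% and 6.59% detected, and the protocadherin gene Fat4 2.39%, 2.39% and 4.24%. Among the other genes Usp13 had 12.2%, 17.6% and 19.4% detected and 4.39%, 11.3% and 7.84% own. Bbs7, a gene of the ciliary BBSome, had 7.86%, 10.7% and 5.00% own, and Ankrd50 2.17%, 7.97% and 4.35% detected.

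**Figure D5:**
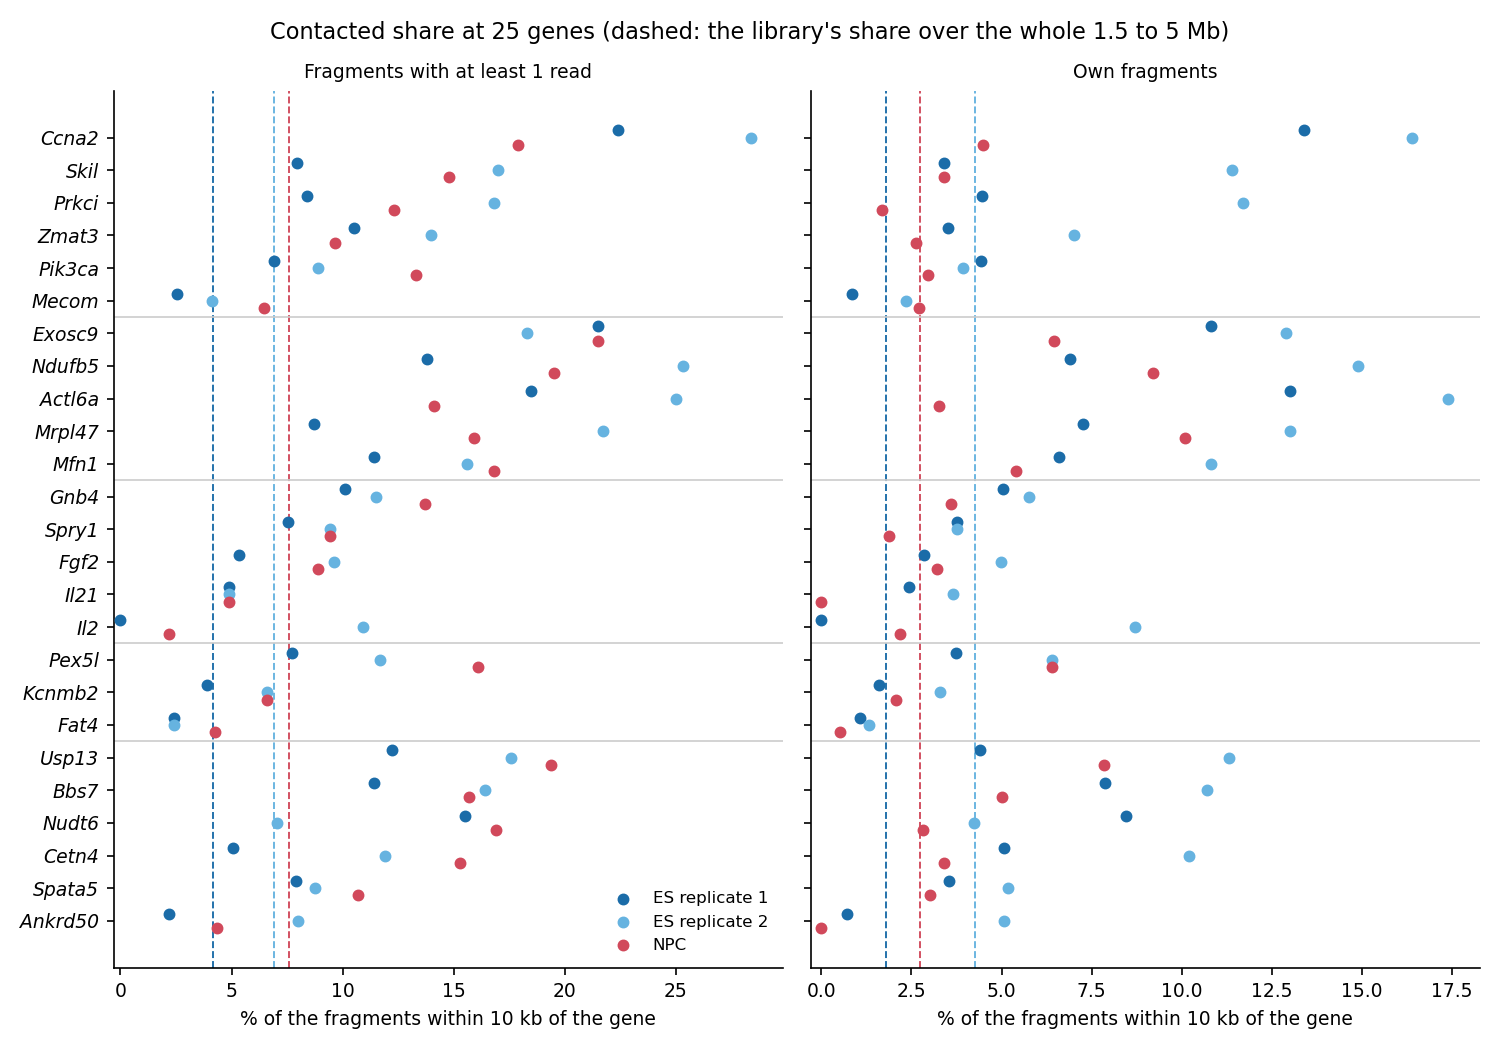
Percent of the fragments within 10 kb of each of 25 genes that were detected (left) or own (right) in each library; dashed lines give the library's share over the whole 1.5 to 5 Mb, and grey lines separate the gene lists. Own shares of NPC lie below both ES replicates at Ccna2, Actl6a and Prkci, where they rest on 3 fragments each, and above both at Mecom.

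Clusters were defined as at least 4 detected fragments with no more than 2 kb between neighbours. There were 15 in ES replicate 1, 42 in ES replicate 2 and 50 in NPC, holding 10.6%, 18.4% and 18.9% of the detected fragments. Overlapping spans were found for 7 clusters of the 2 ES replicates, which is 46.7% of those of ES replicate 1, and a cluster of NPC overlapped the stretch common to both in 4 cases. These 4 lay at the start of Actl6a (chr3:32605293-32607682), between Ndufb5 and Usp13 (chr3:32652477-32664109), in Usp13 (chr3:32750456-32755411) and at Anxa5 and 1810062G17Rik (chr3:36372750-36378125). The other 3 lay in Mfn1 (chr3:32428776-32435571), at Exosc9 (chr3:36450129-36459679) and at Ccna2 and Bbs7 (chr3:36465896-36476110). All 7 lay within 2.5 Mb of the bait. At Actl6a the clusters of ES replicate 1 and NPC ended at 32607043, before the gene start at 32607468. Only that of ES replicate 2 reached the start.

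In the cluster between Ndufb5 and Usp13, 10, 11 and 11 of 29 fragments were detected, with 4187, 449 and 309 reads. ES replicate 1 shared 7 of the same fragments with NPC and 3 with ES replicate 2. Own fragments numbered 5, 8 and 5. In the cluster near Actl6a, 6, 4 and 4 of 8 fragments were detected, but 5, 3 and 0 were own, and all 4 in NPC were also detected in ES replicate 1. At Mfn1, 6, 6 and 7 of 18 fragments were detected, and 6, 5 and 1 were own. With own fragments there were 3, 11 and 4 clusters. That at Mfn1 was then the only one shared by both ES replicates, and none was shared by all 3. In the 4 clusters common to all 3 libraries, ES replicate 1 and NPC had 4, 7, 5 and 2 of the same fragments, and the ES replicates 3, 3, 3 and 1.

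At the level of single fragments 68 were detected in all 3 libraries, against a product of the 3 shares of 3.77. For own fragments the count was 3 against 0.361. As fragments differ in their chance to be read, these products are not a null. Fragments with a GTAC site, which the second digestion needs, were detected 1.69, 1.49 and 1.61 times as often as those without, and fragments with a unique end 4.25, 5.12 and 5.06 times as often as those with none. The 5734 longest fragments were detected 1.5, 1.66 and 1.64 times as often as the 5758 shortest. For own fragments the same folds were 1.34, 1.65 and 1.41 for a GTAC site, 3.75, 6.09 and 6.72 for a unique end, and 1.66, 1.70 and 1.75 for length.

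ES and NPC were tested over all 100 kb bins of chromosome 3 with edgeR's quasi-likelihood test and Benjamini-Hochberg adjustment. The spread came from the 2 ES replicates, with the 1 NPC library taken to have the same spread. Of 1241 bins with enough reads, edgeR called 0 higher in ES (0%) and 0 higher in NPC (0%), and 2 and 18 had an unadjusted p under 0.05. None of the 70 bins at 1.5 to 5 Mb was called, and 0 and 0 of these had an unadjusted p under 0.05. For reads, DESeq2 called 34 bins of the chromosome higher in ES (2.74%) and 37 higher in NPC (2.98%), but 0 of the 70. For the number of detected fragments per bin, edgeR called 0 of 446 bins higher in ES (0%) and 0 higher in NPC (0%), with 8 (1.79%) and 7 (1.57%) at an unadjusted p under 0.05. DESeq2 called 0 and 0 of these (0%), with 0 and 0 at that unadjusted threshold. For own fragments edgeR called 0 and 0 of 150 bins (0%), with 7 and 5 at an unadjusted p under 0.05. For detected fragments scaled by TMM, 2 of the 70 bins were higher in ES and 1 in NPC at the unadjusted threshold, a share near that of the chromosome. Which bins reached that threshold depended on the scaling. With library totals in place of TMM, the median log2 difference of detected fragments over the 70 bins changed from 0.036 to -0.118. For reads with DESeq2 it was 2.19 over the 70 bins and 0.753 over all bins of the chromosome. The median SE of a bin was 3.66 on the log2 scale for reads and 0.41 for detected fragments, so the test of reads could call large differences alone.

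The 3 bins under TMM were as follows. At Actl6a, Mrpl47 and Ndufb5 (chr3:32560500-32660499), 37, 54 and 41 fragments were detected, a log2 difference of ES minus NPC of 0.69 (SE 0.24, edgeR adjusted p = 0.955). At Lrriq4, Lrrc31 and Samd7 (chr3:30560500-30660499) the numbers were 18, 29 and 20 (log2 difference 0.77, SE 0.29, edgeR adjusted p = 0.955). In a bin without a gene (chr3:38560501-38660500) they were 1, 5 and 13 (log2 difference -1.54, SE 0.67, edgeR adjusted p = 0.955). For own fragments the last bin had 0, 2 and 8 (log2 difference -2.93, SE 0.81, edgeR adjusted p = 0.178). The bin of Phc3 and Prkci (chr3:30860500-30960499) had 11, 24 and 4 own fragments (log2 difference 2.01, SE 0.68, edgeR adjusted p = 0.178). No bin at 1.5 to 5 Mb thus passed the threshold, which does not show that ES and NPC are alike there.

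Over the 13 bins with at least 2 gene starts the median log2 difference in own fragments was 0.62 and 11 of 13 were above 0. It was -0.47 over the 32 tested bins with no start, of which 13 were above 0. Single bins had a median SE of 0.63 and 0.80. The filter kept all 13 bins with at least 2 starts but only 32 of the 42 with none. Bins are not replicates, so these values are descriptions without a test. Over all 59 tested bins at 1.5 to 5 Mb the median was 0.08, with 32 bins above 0 (54.2%). Over the 150 bins tested on the chromosome it was 0.13, with 83 above 0 (55.3%). For detected fragments the medians were 0.33, -0.09 (42 bins) and 0.00221 (all 446). The zero of this scale depends on the scaling: with library totals in place of TMM the median of detected fragments over all bins was -0.15, and that of reads over the 70 bins changed from 1.22 to -0.16. Differences between gene-rich and gene-poor bins do not depend on that zero.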

How the data were processed

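Mouse 4C libraries of the Sox2 SCR bait were analysed, 2 from ES cells and 1 from NPC. Per the labels, reads of 50 nt were left with 27 nt once the bait was removed. The authors trimmed the bait sequence, mapped to mm9 with Bowtie and deposited read counts per DpnII fragment, neither normalized nor freed of PCR duplicates. The submitters' notes list bcl2fastq and Bowtie 1.0.0. Per the study's user guide, fragments with over 2% of all reads were left out.

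All 391360 fragment midpoints matched DpnII sites of mm9, and genes are those of GENCODE vM1. Bins of 100 and 250 kb were counted outward from the bait. The tests omit fragments up to 20 kb from the bait. Bins with at least 10 reads, or 10 detected fragments, over the 3 libraries were tested with edgeR 4.0.16 (TMM, quasi-likelihood, Benjamini-Hochberg threshold 0.05). DESeq2 1.42.0 was the alternative, and both ran in R 4.3.3. The fits were also run on simulated data, not reported here, and the test of reads could call large differences alone. Other steps used Python 3.11.15. Totals per library ranged from 2889643 to 6447786 reads. Intervals (exact binomial, 95%) cover counting error only. A share at 0 was given the limit of 3 counts. Alternatives changed the test, scaling, filter, bin size, detection limit, depth, fragments used and cluster rule.

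The range, the gene lists and the tests were chosen with earlier results of these data known. By rule, named genes overlap the 5 highest and 5 lowest bins of 100 kb or the shared clusters, or stand in 1 of 5 lists of 27 genes in all, and 1 further listed gene is not reported here. Of the 27, Tnik and Nlgn1 had no fragment in the range. The own-fragment rule, the contrast by gene starts, the areas of 250 kb bins, the printed fragments and the genes named with these or with bins at an unadjusted p were chosen after the values were seen. The Satb1 and Ikzf1 libraries gave only the share of fragments detected at the same distances.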

Additional observations from a re-analysis of the deposited data

How the results depend on the processing

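No paired analysis was possible because NPC has 1 library and no replicate number. With 1 ES replicate left out, 1 library stands against 1 with no residual degrees of freedom, so no test was made there. The ES to NPC ratio of the detected share was then 0.548 to 0.914, and the side ratio in ES 1.24 to 1.32. The number of bins called at 1.5 to 5 Mb stayed at 0 in both directions under each alternative that was run: DESeq2, library totals, no filter, 250 kb bins, bins near the bait left out, GTAC or unique-end fragments, capped reads, detection from 5 reads, thinned reads and own fragments. On the whole chromosome, bins called by reads numbered 0 in ES and 0 in NPC, but 34 and 37 with DESeq2, 2 and 6 with library totals, and 3 and 3 for own fragments. Own fragments and the leaving out of shared fragments were chosen after seeing the data. The cause of these changes and those below was not tested.

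The detected share of NPC was 5.69% from 2 reads, 3.73% from 5 reads, 9.57% among GTAC fragments, 8.79% among fragments with a unique end, 2.74% for own fragments and 5.24% without fragments that ES replicate 1 and NPC share. The ES mean was 3.41% from 5 reads and 3.03% for own fragments, where the ratio of ES to NPC was 1.11. The side ratio in ES was 1.35 from 5 reads, 1.38 for own fragments and 1.22 without shared fragments. In NPC it was 1.11 from 5 reads and 1.11 without shared fragments. It stayed above 1 in each.

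Fragments detected in all 3 libraries numbered 27 from 2 reads, 10 from 5 reads and 3 for own fragments, and 0 by construction without shared fragments. Clusters shared by both ES replicates, and by all 3 libraries, numbered 3 and 1 from 2 reads, 1 and 0 from 5 reads, 4 and 2 with thinned reads, 0 and 0 among GTAC fragments, 1 and 0 for own fragments, and 0 and 0 without shared fragments. They numbered 0 and 0 with a gap of 1 kb, 31 and 28 with 5 kb, 17 and 10 with at least 3 fragments, and 1 and 1 with at least 6. The clusters thus depend on the rule that defines them. The ratio of the fold near gene starts between ES and NPC was 1.35 for detected fragments, 2.34 from 5 reads and 3.30 for own fragments. With 1 ES replicate left out it was 1.11 (without replicate 1) and 1.59 (without replicate 2) for detected fragments, and 1.95 and 4.65 for own fragments.

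At 17226 fragments per library, shares of single bins rest on few fragments, and in NPC 63.7% of detected fragments had under 10 reads.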
